A study of Arabidopsis thaliana with 6 samples.

Results

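The response to salicylic acid (SA) after 24 h was read from the 1 array, of 6 in the series, on which RNA of plants treated with 5 mM SA for 24 h was labelled with Cy5 and RNA of untreated plants with Cy3. It was chosen by its label, not by any measured value, and the same treatment for 2, 5 and 10 h, with 1 array each, is the rest of the time course. All plants on these arrays were Arabidopsis thaliana of the Columbia ecotype, 28 days old, sampled whole without the root. The other 2 arrays compare plants overexpressing SIBA (AT3G56710, named SIB1 in the gene table) with vector control plants of the same age. They are called the overexpressor arrays here, and their values enter an alternative fit and are given beside some genes below. On them 41 and 403 features were at least 2-fold higher, and 18 and 486 at least 2-fold lower. The labels do not say how SA was applied, how many plants went into each RNA, at what hour of the day the plants were collected, or whether the untreated RNA was the same on every array.

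SA is a plant hormone that is made in leaves attacked by pathogens. It is sensed by proteins of the NPR family, which with TGA and WRKY transcription factors switch on defence genes such as PR1. Plants inactivate SA by adding glucose or by hydroxylation, and SA also promotes leaf senescence, in which chloroplasts are taken apart and their nitrogen is moved elsewhere.

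Of the 21500 features on the array, 19508 gave a value at 24 h, meaning that the spot carried no outlier mark and was well above background in at least 1 channel. Every value below is the log2 ratio of the SA-treated over the untreated plants, so 1 means 2-fold higher and -1 means 2-fold lower. With 1 array there is no replicate error and no test of the 24 h ratios themselves, and dyes were not swapped, so sizes are given and a dye preference of a probe was not tested. How intact the RNA of each sample was, and its part in the higher and lower ratios, was not tested either. The median signal above local background was 404 for Cy5 and 260 for Cy3 at 24 h. It was 206.5 for Cy5 and 171.5 for Cy3 at 5 h, and 300.0 and 174 at 10 h. The 2 h array was dim, with 21.5 for Cy5 and 60 for Cy3. Scanner software marked 1722 spots (8.01%) as outliers at 24 h, against 10 to 25 spots on each earlier SA array, and SIB1 was among those left out.

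At 24 h 1051 features (5.39%) were at least 2-fold higher in SA-treated plants and 1113 (5.71%) were at least 2-fold lower. The shares higher were 3.84%, 6.35% and 7.64% at 2, 5 and 10 h, and the shares lower were 2.31%, 3.82% and 4.63%. Lower features made up the larger side at 24 h and the smaller side at each earlier time. This split depends on the scaling. When each array was centred on its median in place of the loess curve, 1580 features were higher and 887 lower at 24 h, and the higher share of all 2-fold features was 64.0%, against 48.6% with loess. Under median centring that share was 90.2%, 69.4% and 75.2% at 2, 5 and 10 h, so 24 h still had the smallest. At least 4-fold differences were seen for 227 higher and 114 lower features, with extremes of 4.98 and -4.19.

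**Figure D1:**
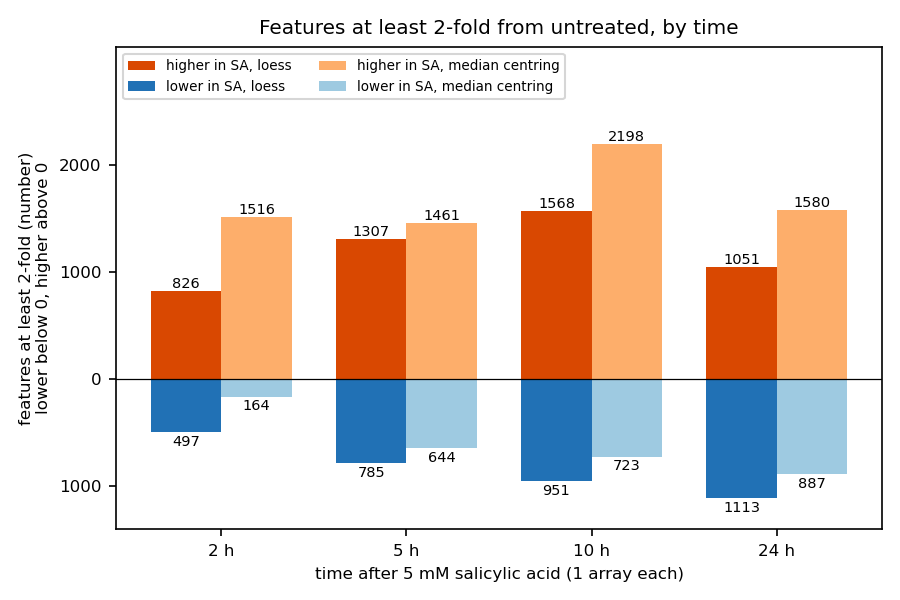
Bars give the number of features at least 2-fold higher (above 0) or lower (below 0) in SA-treated than in untreated plants at 2, 5, 10 and 24 h, 1 array each. Dark bars use loess and light bars median centring; at 24 h the loess bars are 1051 and 1113, the median-centred bars 1580 and 887.

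The highest ratio at 24 h with the background offset of 50 belonged to PCR1 (AT1G14880), a membrane protein gene of the plant cadmium resistance family. Over all settings tried PCR1 reached at most 5.34, while with an offset of 0 GSTU3 had 6.18 and ELI3-2 5.97, so the order at the top depends on how dim untreated channels are handled. Spot readings below are signals above local background before normalization, and their quotient differs from the ratio, which is taken after the offset and loess. The PCR1 spot read 38354 in SA-treated plants and 612 in untreated plants, its normalized difference was 31.6-fold, and its ratios were 1.45, 4.93, 5.60 and 4.98 at 2, 5, 10 and 24 h. It was thus low only at 2 h and near its 24 h level from 5 h on. AT1G30700, annotated as an FAD-linked oxidoreductase, read 10055 in SA-treated and 168 in untreated plants, with ratios of 0.40, 1.77, 2.90 and 4.75. ELI3-2 (AT4G37990), annotated as a cinnamyl-alcohol dehydrogenase, read 3495 in SA-treated and 50 in untreated plants, with 0.10, 0.95, 2.50 and 4.68. Each later array of both genes stood above the one before. NIT2 (AT3G44300), a nitrilase that has near-identical copies on which a probe may also bind, read 13456 in SA-treated and 245 in untreated plants, with a normalized difference of 25.5-fold.

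Other genes among the 15 highest had been far above the untreated plants early. AT4G01870, a hypothetical protein, had ratios of 7.17, 7.17, 5.79 and 4.58, and its Cy5 channel was saturated at 5 h, where 7.17 is a lower bound. GRX480 (AT1G28480), a glutaredoxin that binds TGA factors, had 5.59, 4.88, 4.04 and 4.26. UGT76B1 (AT3G11340), a glucosyltransferase acting on SA and isoleucic acid, had 5.20, 5.32, 4.94 and 4.01. HR4 (AT3G50480), a homologue of the mildew resistance protein RPW8, had 3.92, 5.45, 4.46 and 3.89. For these genes 24 h was below the highest earlier time.

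A further set of the 15 was highest at 24 h. They include the trypsin inhibitor genes TI1 (AT2G43510; 0.12, 0.58, 2.15 and 4.19) and KTI1 (AT1G73260; 0.31, 0.33, 1.33 and 4.07). GSTU3 (AT2G29470), a tau glutathione transferase, had 0.09, 0.50, 2.49 and 4.18, with an untreated channel near background on each earlier array. AT2G38240, annotated as a 2-oxoglutarate-dependent dioxygenase, had 1.45, 3.30, 3.67 and 4.40. TRX5 (AT1G45145), a cytosolic thioredoxin that acts on NPR1, had 1.48, 2.67, 3.05 and 3.91. SAG13 (AT2G29350), a senescence-associated gene annotated as a tropinone reductase, had 0.12, 2.17, 1.22 and 3.88, and AT1G68620, annotated as an expressed protein, had 2.05, 1.19, 1.64 and 3.85.

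**Figure D2:**
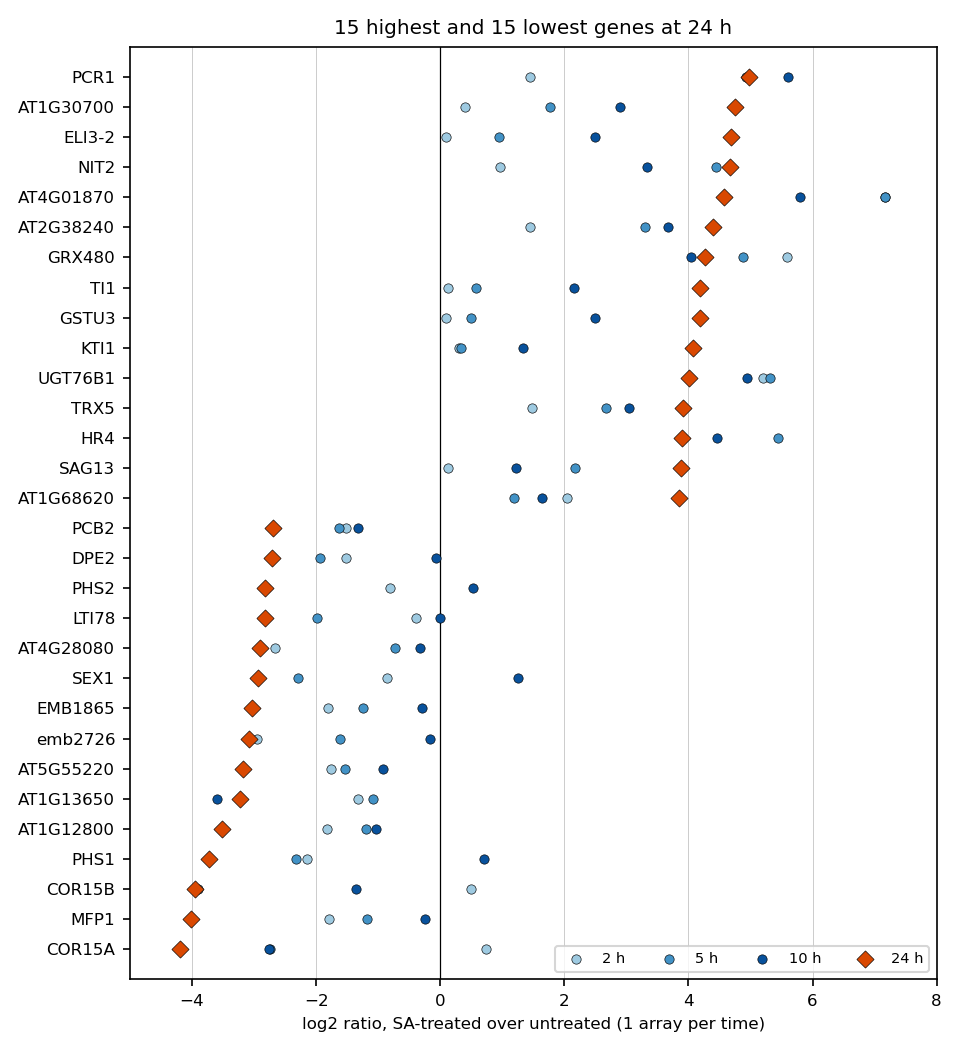
Each row is a gene among the 15 highest or 15 lowest at 24 h, and each point its log2 ratio of SA-treated over untreated plants on 1 array, with 24 h as diamonds and the earlier times as circles. The 24 h values run between 4.98 for PCR1 and -4.19 for COR15A; a circle can lie under a diamond where ratios coincide.

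What set 24 h apart was tested as the 24 h ratio minus the mean of the 2, 5 and 10 h ratios, with the spread between the 3 earlier arrays as the error. That spread holds the time course itself, and the lone 24 h array was assumed to vary like the others, so the fit tells little about single genes. On simulated data for this comparison it recovered 0% of differences of 1 or 2 on the log2 scale, 30% of those of 3 and 50% of those of 4, with 4 false calls among 19468 features. The limma fit with Benjamini-Hochberg adjustment over 19468 features called 0 features (0%) higher and 0 (0%) lower at an adjusted p under 0.05 and at least 2-fold. Its p-values take 3 different times as replicates, so counts of features by unadjusted p have no valid chance level and are not given. By size 333 features were at least 2-fold above and 904 at least 2-fold below their earlier mean, which no test separates from the spread. The largest differences are therefore given as values. They describe how single genes stood at 24 h and are not calls.

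OSM34 (AT4G11650), which encodes an osmotin-like antifungal protein, had the largest positive difference. Its ratios were -0.04, 0.00, 0.12 and 3.78 at 2, 5, 10 and 24 h, and its 24 h spot read 3196 in SA-treated and 105 in untreated plants. The difference was 3.75, with no replicate of the 24 h array to give its error. AT5G39520, an expressed protein, had -0.02, 0.07, 0.55 and 3.73. FER1 (AT5G01600), the iron store ferritin, had -0.07, -0.46, -0.12 and 2.92, with 11655 in SA-treated and 776 in untreated plants at 24 h. All 3 were near the untreated level until 10 h and at least 7.59-fold above it at 24 h, and the test called none of them.

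The other large positive differences were KTI1 (3.41), ELI3-2 (3.5), TI1 (3.24), GSTU3 (3.16), AT1G30700 (3.06), EBP and ADS1. EBP (AT3G16770), the ethylene response factor also named RAP2.3, had -1.13, -0.04, 1.67 and 3.28. Its treated channel was saturated at 24 h, so on the loess scale it was at least 9.72-fold higher in SA-treated plants, and its log2 ratio was 3.22 in the authors' ratios and 3.51 under median centring. ADS1 (AT1G06080), a fatty acid desaturase, differed in another way, since its ratios were -1.55, -3.33, -2.92 and 0.50. It was at least 2-fold below the untreated plants at each earlier time and was not at 24 h. On the 2 overexpressor arrays EBP had -0.19 and 2.59, and ADS1 -1.68 and -0.85. KTI1, ELI3-2, TI1, GSTU3 and AT1G30700 lay between -0.04 and 0.11 there.

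Of the 10 largest negative differences 9 belonged to genes at least 2-fold higher at 2 and 5 h and not at 24 h. The other belonged to MFP1, with -0.25 at 10 h and -4.02 at 24 h, which is described with the lowest genes. UGT75B1 (AT1G05560), a glucosyltransferase, had 5.26, 4.35, 2.89 and 0.84 at 2, 5, 10 and 24 h. OPR1 (AT1G76680), a 12-oxophytodienoate reductase, followed the same order at 5.31, 4.0, 2.80 and 0.82. PAD3 (AT3G26830), which makes the antimicrobial camalexin, had 2.22, 4.67, 4.22 and 0.97. AGP1 (AT5G64310), an arabinogalactan protein of the cell wall, had 3.18, 3.41, 1.92 and -0.02. AT2G33830, annotated as auxin-regulated, had 4.29, 1.08, 4.53 and -0.50, and AT3G15450 had 4.39, 2.55, 3.46 and 0.21. The lectin genes AT3G16530 (2.69, 3.91, 2.25 and -0.36) and AT3G15356 (3.24, 3.03, 0.52 and -1.01) had a negative ratio at 24 h, though AT3G16530 stood at 0.02 under median centring. AT3G23550 had 3.26, 4.16, 2.76 and 0.51. None was called by the test.

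**Figure D3:**
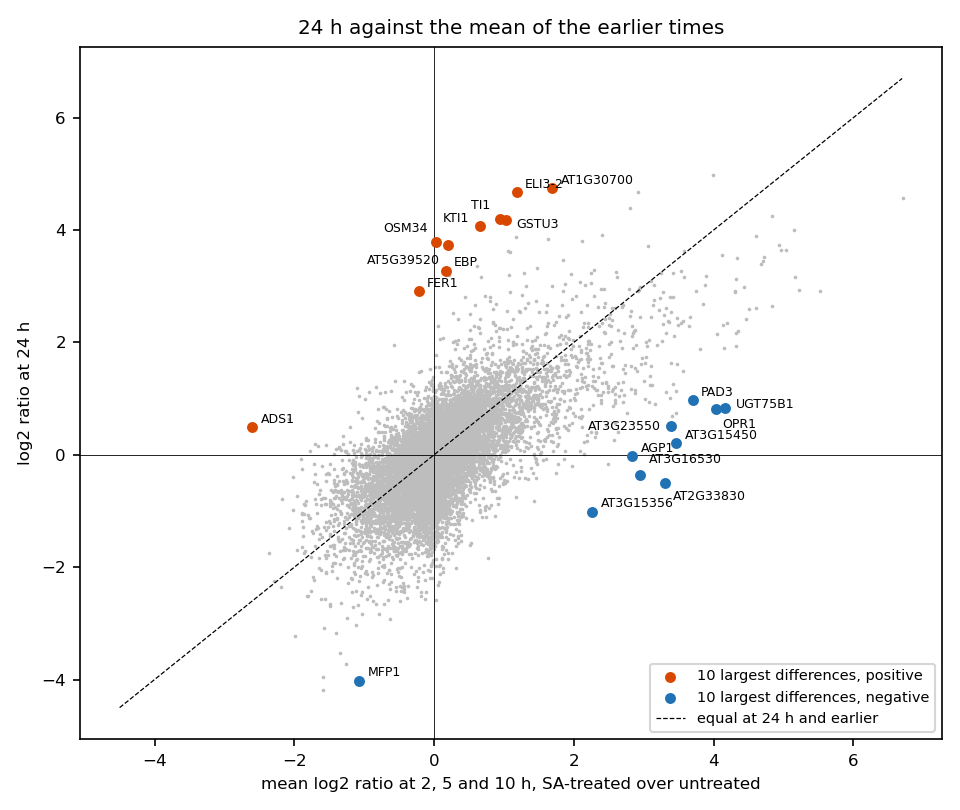
Each grey point is a gene, with the mean of its log2 ratios at 2, 5 and 10 h across and its 24 h log2 ratio up, SA-treated over untreated; the dashed line marks equal values. OSM34 lies at 3.78 at 24 h with an earlier mean of 0.03, while UGT75B1 lies at 0.84 with an earlier mean of 4.17.

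Higher and lower genes differed in how many earlier times shared them, but the earlier times also held fewer lower than higher features. Over all features the shares higher were 3.84%, 6.35% and 7.64% at 2, 5 and 10 h. The shares lower were 2.31%, 3.82% and 4.63%, which leaves less room for shared lower features. Of 1049 features at least 2-fold higher at 24 h and measured on all 4 arrays, 337 (32.1%) were also at least 2-fold higher at each of 2, 5 and 10 h, 250 at 2 of these times, 221 at 1 and 241 (23.0%) at none. Of 1112 features lower at 24 h, 49 (4.41%) were at least 2-fold lower at every earlier time, 156 at 2, 319 at 1 and 588 (52.9%) at none. The count of 49 varied most with the processing, between 7 under median centring and 121 with the scanner's log ratio. The earlier arrays may share untreated RNA with the 24 h array, which the labels do not say. Seen from the early side, 455 features were at least 2-fold higher at 2, 5 and 10 h, and 337 of them (74.1%) were at 24 h, with medians of 1.80, 2.46, 2.03 and 1.48 over the 4 times. Of 81 that were at least 2-fold lower at 2, 5 and 10 h, 49 (60.5%) still were.

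The gene lists below are described by how many measured members were at least 2-fold higher or lower at 24 h, against 5.39% and 5.71% of all features, and by the list's median, where the median of all features was 0.02. Members that do not reach 2-fold are counted as neither. The lists and their members were chosen with earlier results of these data known, so their counts are not independent of the data. In SA synthesis and signalling 20 genes had a value at 24 h, and 6 of these were higher by 2-fold or more and 0 lower, with a median of 0.46. NIMIN1 (AT1G02450), which binds NPR1, was the highest of them, with ratios of 4.61, 5.34, 4.88 and 3.74. CBP60G, a transcription factor that drives SA synthesis, had 1.47, 1.81, 1.41 and 1.65. ADR1, a helper of immune receptors, had 0.36, 1.06, 1.43 and 1.5, and NPR1 had 0.86, 1.23, 1.11 and 1.32. PAD4, a lipase-like regulator, and EDS5, the SA exporter of the chloroplast, completed the 6, with 1.11 and 1.14 at 24 h. EDS16 (ICS1, AT1G74710), the SA synthesis enzyme, had 0.49, 2.65, -0.21 and -0.37, so it was above 2-fold at 5 h alone.

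Defence genes that respond to SA had a median of 1.19 at 24 h, and 6 of 11 measured were at least 2-fold higher with 0 lower. PR1 (AT2G14610), the classical marker, read 2215 in SA-treated and 147 in untreated plants, and its ratios of 0.10, 0.71, 2.47 and 2.89 were highest at 24 h. LURP1, a gene induced by pathogens, had 3.65, 3.12, 3.85 and 3.28, close to level over the course. Its treated channel read 63854 at 24 h, without a saturation mark but close to the 65153 of the saturated EBP spot. NUDT6, a Nudix hydrolase, had 0.83, 3.02, 1.87 and 1.41. The kinase gene WAK1 and the protease gene AED1 (AT5G10760) had 1.38 and 1.19 at 24 h. BGL2 (PR2, AT3G57260), a glucanase, was at 0.20, and PR5 (AT1G75040), a thaumatin-like protein, at 0.82, both under 2-fold. SIB1 (AT3G56710) had 4.46, 3.71 and 2.89 at 2, 5 and 10 h, and its marked 24 h spot, if kept, gives 0.76.

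Enzymes that modify SA had a median of 0.34, 2.09, 1.71 and 1.44 at 2, 5, 10 and 24 h, and 6 of 10 reached 2-fold higher at 24 h, 0 lower. UGT74F2 and UGT74F1, which attach glucose to SA, had 3.93, 5.06, 4.31 and 2.99, and -0.02, 3.55, 2.71 and 1.93. DMR6, an SA hydroxylase, had 2.05, 3.72, 2.90 and 1.95. These genes and UGT76B1 were below their 5 h level by 24 h. MES9, an esterase that frees SA from methyl salicylate, and WES1 (GH3.5), an amido synthetase, reached 2-fold at 24 h and not before, at 0.05, -0.10, -0.49 and 1.49, and 0.08, 0.35, 0.47 and 1.38. The sulfotransferase gene SOT12 was high early, at 2.63, 4.89 and 2.85, and at 0.75 by 24 h.

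Among regulators, 16 of 67 WRKY factors were at least 2-fold higher at 24 h and 1 lower. WRKY75 had 1.26, 2.34, 4.23 and 3.25, WRKY51 1.90, 2.41, 2.25 and 2.67, WRKY38 2.02, 3.30, 3.19 and 2.3, and WRKY62 2.80, 2.68, 2.44 and 2.22. WRKY70 (AT3G56400), which acts downstream of NPR1, had 2.87, 1.51, 3.75 and 1.53. Of 78 NAC factors, 15 were higher and 0 lower, led by NAC3 (AT3G15500; 1.08, 2.49, 2.91 and 3.03), ANAC087 (0.90, 3.18, 3.09 and 2.95), ATAF2 (6.19, 5.28, 4.21 and 2.93) and ATAF1 (4.07, 3.04, 1.63 and 2.91). The medians of both families were small, 0.21 for WRKY and 0.14 for NAC, so the responding members stood out from families that were mostly near 0. Among 25 ethylene response factors 3 were higher and 0 lower, namely EBP, ERF2 (3.11, 1.43, 1.53 and 1.08) and DREB2C (0.33, 1.41, 2.53 and 1.02, or 0.99 at 24 h under median centring).

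Senescence and darkness genes formed the list with the highest 24 h median, 1.52, and 16 of 21 were at least 2-fold higher with 0 lower. SAG21 (5.22, 5.62, 4.05 and 3.65) and ASN1 (DIN6; 2.61, 3.56, 2.62 and 2.94), an asparagine synthetase for nitrogen transport, were high throughout. On the 2 overexpressor arrays SAG21 had -0.01 and 2.62, and ASN1 -0.46 and 2.56. SAG13 had 0.17 and 0.45 there, and ATAF1 0.00 and 0.98. The NAC factor NAC6 (ORE1, AT5G39610), a regulator of leaf ageing, had -0.06, 1.3, 2.13 and 2.42 and was highest at 24 h. ACD1 (PAO), which opens the chlorophyll ring during breakdown, had 0.17, 0.27, 0.66 and 1.33 and passed 2-fold at 24 h only. SAG12, a protease of late senescence, was at 0.82, and DIN11 at -0.33 after 1.01, 2.07 and 2.15 earlier. In amino acid breakdown 7 of 15 genes were higher and 0 lower, with ERD5 (proline dehydrogenase; 3.71, 3.84, 3.18 and 3.16), BCAT-2 (1.93, 4.03, 3.47 and 3.02), GDH2 (glutamate dehydrogenase; 3.55, 3.89, 3.79 and 2.92) and TAT3 (tyrosine aminotransferase; 2.08, 3.06, 2.96 and 2.67) highest.

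Detoxification genes stayed high in part. Of 42 tau and phi glutathione transferases, which join glutathione to reactive compounds, 17 were at least 2-fold higher at 24 h and 1 lower. GSTU24 had 4.48, 5.12, 4.56 and 3.52, GSTU4 0.90, 4.66, 4.40 and 2.62, and GSTU2, whose untreated channel was not well above background, was at least 5.07-fold higher on the loess scale, with a log2 ratio of 2.34 there, 2.25 under median centring and 4.61 with an offset of 0. Of 61 family 1 glucosyltransferases 13 were higher and 1 lower, among them UGT85A1 (5.4, 5.77, 4.31 and 3.16) and UGT74E2 (5.50, 5.83, 5.24 and 2.91). In the list of mitochondrial stress and oxidoreductase genes 8 of 14 were higher and 0 lower, and its median was 1.65, 2.54, 1.93 and 1.07 over the 4 times. Its members parted, since CYP81D8 (a cytochrome P450; 4.01, 5.20, 3.72 and 2.91) was past its peak while AOX1D (an alternative oxidase of mitochondria; 0.27, 0.65, 1.27 and 2.82) and TRX5 were highest at 24 h.

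Protein folding genes were nearer to the untreated level at 24 h than at 10 h. Of 19 heat shock genes 10 were at least 2-fold higher and 1 lower at 24 h, with a median of 1.98 at 10 h and 1.02 at 24 h. Hsp70b had 1.03, 3.63, 4.13 and 2.96, HSP101 1.63, 3.42, 3.48 and 2.17, and HSP17.6A 1.19, 2.54, 2.19 and 1.74, while the factor HSF4 (HSFB1, AT4G36990) had 1.42, 2.35, 1.85 and 3.04. For 19 genes of folding in the endoplasmic reticulum the median was -0.25, 0.94, 2.09 and 0.45, and 17 were at least 2-fold higher at 10 h, against 5 higher and 1 lower at 24 h. BZIP60, a transcription factor of that stress response, had 2.43, 3.79, 2.94 and 1.94, SDF2 0.08, 0.87, 1.49 and 1.60, and the chaperone CNX1 -0.46, 1.15, 1.81 and 1.40. SHD (HSP90.7, AT4G24190), the chaperone of the HSP90 family there, had opposite signs at 10 and 24 h, with -2.64, 0.20, 2.61 and -1.39. Proteasome subunits had a median of 0.65 at 24 h, with 24 of 27 above 0 but only EMB2719 (1.15) and RPN10 (1.07) at 2-fold, while under median centring 13 reached it.

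Genes of pattern-triggered immunity and camalexin had a median of 0.79, with 7 of 22 at least 2-fold higher, 11 under median centring, and 0 lower. YLS9 (NHL10) had 0.56, 1.26, 1.81 and 2.56, CYP71A13 of camalexin synthesis 0.09, 1.41, 3.34 and 2.29, the syntaxin SYP121 (PEN1) 2.79, 2.11, 1.21 and 1.58, and the kinase BIK1 1.54, 2.00, 1.54 and 1.54. Of 28 jasmonate and ethylene genes 5 were higher and 1 lower. PR4 (AT3G04720), a hevein-like protein, had 0.21, -0.21, 2.00 and 3.17. CYP94C1, which oxidises jasmonate, had 1.82, 3.35, 2.44 and 1.79, ACS2 of ethylene synthesis was at 1.61 and EBF2 at 1.33 at 24 h. PDF1.2 (AT5G44420), the jasmonate and ethylene marker, had -0.05, -0.46 and 0.33 at 2, 5 and 10 h and a marked spot at 24 h.

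Of 30 phenylpropanoid and flavonoid genes ELI3-2, CAD5 (cinnamyl alcohol dehydrogenase; 0.36, 0.83, 1.21 and 1.92) and C4H (cinnamate hydroxylase; -0.34, 1.08, 0.18 and 1.48) were higher and 0 lower at 24 h, against 2 higher and 13 lower at 10 h. Of 14 genes of sulfate assimilation APR3 was higher (3.04, 3.55, 2.68 and 1.41) and 0 lower. Among cell wall loosening genes 8 of 55 expansins and xyloglucan endotransglucosylases were higher and 2 lower, with XTH10 (0.12, 1.65, 3.75 and 3.47), XTH25 (0.82, 1.18, 1.86 and 3.24), XTH24 (1.53, 0.31, 0.14 and 2.41) and XTH30 (2.91, 4.53, 3.15 and 2.34) largest in size. At 5 and 10 h this family had 11 lower members each.

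**Figure D4:**
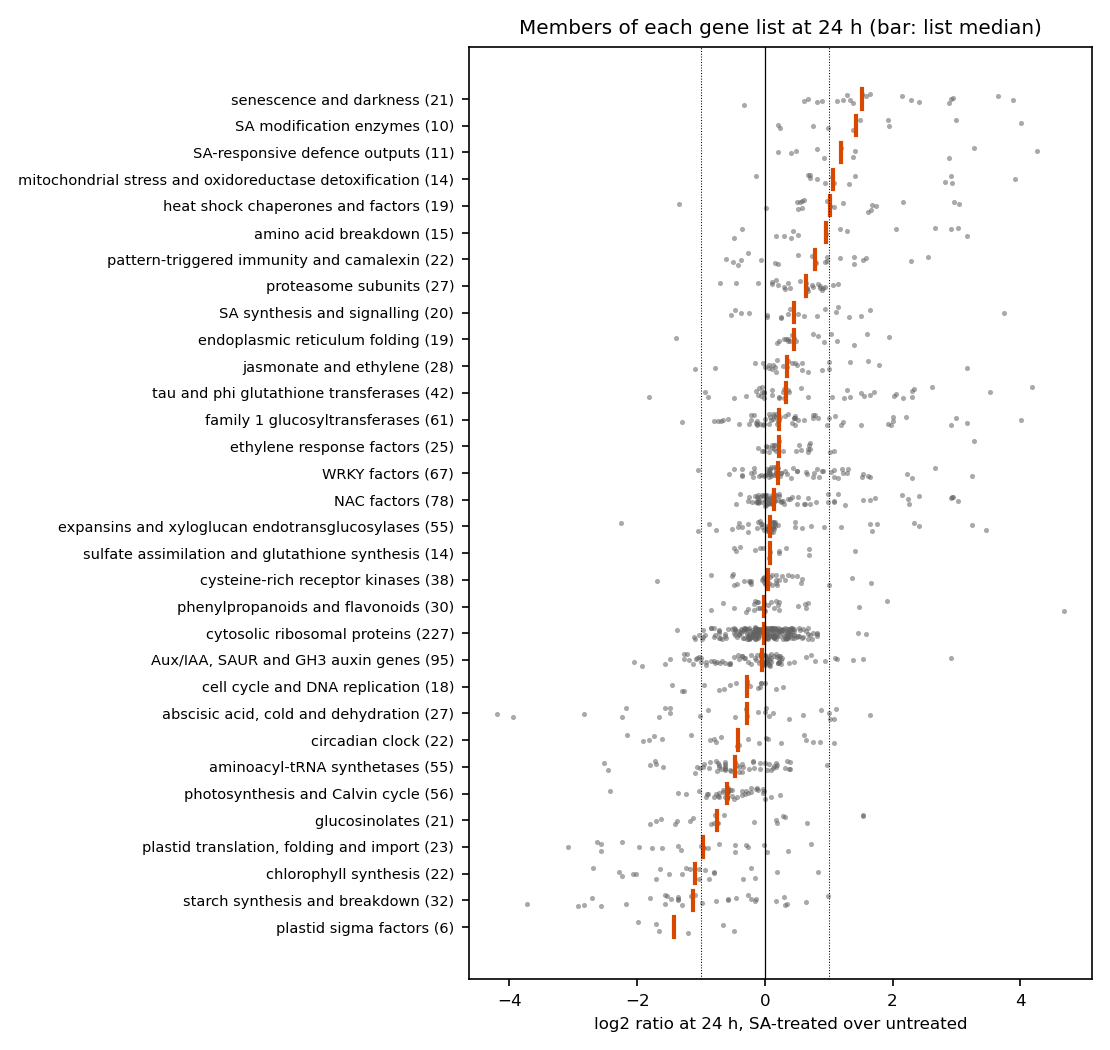
Each grey point is a list member's log2 ratio at 24 h, SA-treated over untreated, with the number of measured members in brackets, the list median as a bar and dotted lines at 2-fold; height within a row is random. Senescence and darkness lies highest with a median of 1.52 and plastid sigma factors lowest with -1.42, while the 227 cytosolic ribosomal proteins centre on -0.01.

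The lowest ratio at 24 h was that of COR15A (AT2G42540), which encodes a chloroplast protein that protects membranes in the cold. It read 214 in SA-treated and 2676 in untreated plants, and its ratios were 0.74, -2.75, -2.76 and -4.19. COR15B (AT2G42530), its close copy on which the probes may cross-react, had 0.49, -3.90, -1.36 and -3.95. LTI78 (RD29A, AT5G52310) had -0.39, -1.99, 0.00 and -2.83, and KIN2 (AT5G15970) had 1.49, -1.81, -0.38 and -2.24. On the 2 overexpressor arrays, whose labels name no SA, COR15A had -0.36 and -3.05 and COR15B 0.36 and -3.34. LTI78 had -0.14 and -2.67 there, and KIN2 0.19 and -0.57. The cause of the low ratios without SA was not tested. Of 27 abscisic acid, cold and dehydration genes 10 were at least 2-fold lower and 5 higher, with a median of -0.28. Those higher included the phosphatase genes HAI1 (1.65) and ABI1 (1.01), which restrain abscisic acid signalling, and RAB18 (1.12), a dehydrin.

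MFP1 (AT3G16000), a filament-like protein of the thylakoid membrane, read 299 in SA-treated and 3076 in untreated plants, with ratios of -1.79, -1.18, -0.25 and -4.02. Several others of the 15 lowest act in plastids. They are AT5G55220 (trigger factor-like protein; -1.76, -1.54, -0.92 and -3.18), emb2726 (AT4G29060, plastid elongation factor Ts; -2.95, -1.62, -0.17 and -3.08), EMB1865 (AT3G18390, a splicing factor of plastid introns; -1.80, -1.25, -0.29 and -3.03) and PCB2 (AT5G18660, a reductase of chlorophyll synthesis; -1.51, -1.63, -1.33 and -2.69). Except for PCB2 these were within 2-fold of the untreated level at 10 h, though AT5G55220 only just. At 24 h these same genes were at least 8.16-fold below it. AT1G12800 had -1.82, -1.20, -1.03 and -3.52, AT4G28080 -2.66, -0.73, -0.33 and -2.91, and AT1G13650 -1.32, -1.08, -3.59 and -3.22. On the 2 overexpressor arrays AT1G13650 had -1.05 and -2.94, and PCB2 -0.19 and -1.02. The other genes named in this paragraph lay between -0.54 and 0.42 there.

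Chlorophyll synthesis was low as a group, with a median of -0.49, -1.18, -1.28 and -1.10 at 2, 5, 10 and 24 h, and 13 of 22 members were at least 2-fold lower at 24 h with 0 higher, a count of 8 under median centring. PORB and PORA, which reduce protochlorophyllide in the light, had -0.43, -2.41, -0.87 and -2.28, and -0.27, -1.16, -1.49 and -2.07. CHLI2 of magnesium chelatase had -1.20, -2.15, -1.82 and -2.23. On the 2 overexpressor arrays PORB had 0.16 and -1.78, PORA 0.36 and -0.71, and CHLI2 -0.17 and -1.11. HEMA1, which commits glutamate to the pathway, had -1.85, -0.99, -2.10 and -2.02, while its relative HEMA2 was at 0.84 at 24 h. Of 6 sigma factors, the nuclear-encoded subunits that direct plastid RNA polymerase, 4 were lower and 0 higher, with a median of -1.42, the lowest of the 4 times. They were SIGA (SIG1; -1.83, -0.91, -0.96 and -1.99), SIGF (SIG6; -1.51, -1.33, -0.62 and -1.71), SIG2 (-1.06, -1.26, -0.58 and -1.65) and SIG4 (-0.78, -1.44, 0.06 and -1.20). SIG1 is the factor that SIB1 binds.

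Photosynthesis genes differed from this in size. Of 56 measured, 53 were below 0 and 4 at least 2-fold lower, with a median of -0.59 at 24 h and -0.77 at 10 h, when 18 were at least 2-fold lower. The 4 were LHCB2.3 of the light-harvesting antenna (-0.45, -0.86, -3.97 and -2.42) and 3 Calvin cycle genes, PRK (-1.40, -1.03, -0.93 and -1.36), HCEF1 (-0.70, -1.36, -1.51 and -1.24) and SBPASE (-1.11, -0.48, -1.08 and -1.03). Under median centring PRK, HCEF1 and SBPASE were at -0.98, -0.96 and -0.70, less than 2-fold.

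Starch genes and plastid protein genes were assembled after the 24 h values had been seen, because members headed the lowest genes, so their counts are descriptions of a choice. Of 32 starch genes 17 were at least 2-fold lower and 0 higher, with a median of -1.13 at 24 h and -0.10 at 10 h. PHS1 (AT3G29320), the plastid starch phosphorylase, had -2.15, -2.32, 0.70 and -3.73. SEX1 (AT1G10760), which adds phosphate to starch before it is broken down, had -0.86, -2.29, 1.25 and -2.93. PHS2 (AT3G46970) had -0.81, -2.80, 0.53 and -2.83, and DPE2 (AT2G40840), which uses maltose in the cytosol, -1.51, -1.93, -0.06 and -2.71. Each was low at 5 and 24 h and above or near 0 at 10 h. On the 2 overexpressor arrays, whose labels name no SA, PHS1 had 0.22 and -2.24 and SEX1 0.21 and -2.36. PHS2 had 0.09 and -3.01 there, and DPE2 -0.13 and -2.08. These genes were near 0 on 1 of the 2 overexpressor arrays and at least 2-fold lower on the other. The cause of the low ratios was not tested, nor was the hour of collection, which the labels do not give. Among 23 genes of plastid translation, folding and import 11 were lower and 0 higher, with FUG1 (plastid initiation factor; -2.57, -1.17, -0.25 and -2.63), CPN60B (chaperonin; -2.34, -1.55, -0.79 and -2.56) and SCO1 (plastid elongation factor G; -2.61, -1.3, -0.93 and -2.56) after emb2726. Of 55 aminoacyl-tRNA synthetases, found by description and likewise assembled after the values were seen, 9 were lower and 0 higher, with AT3G02760 (-0.55, -0.35, 0.35 and -2.52) and TWN2 (AT1G14610; -0.83, -0.13, 0.60 and -2.45) lowest.

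**Figure D5:**
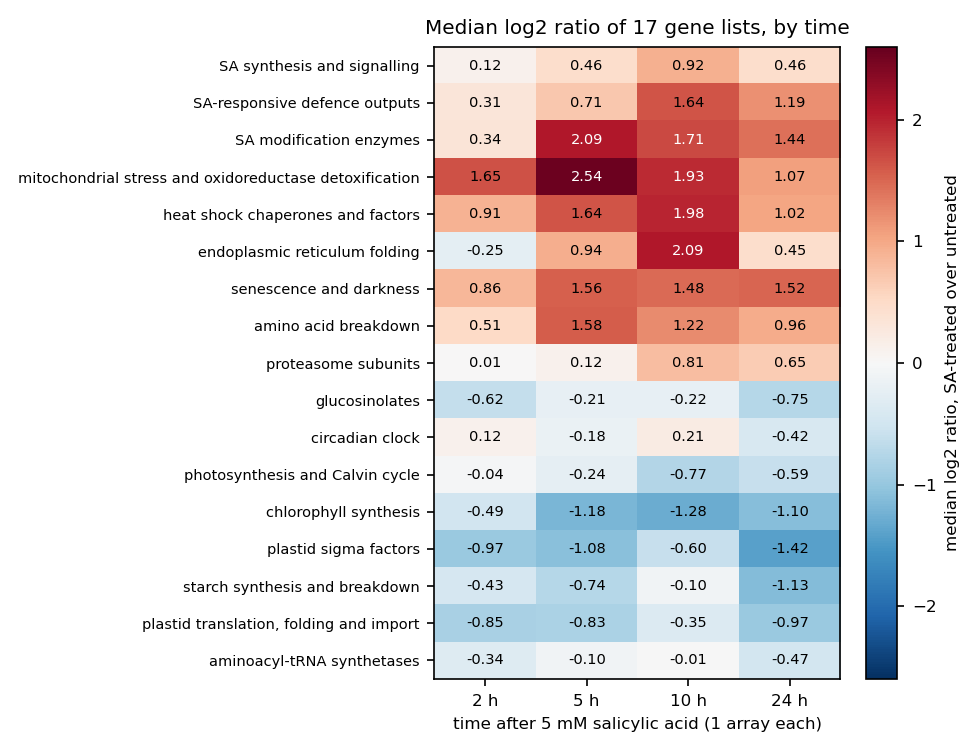
Cells give the median log2 ratio, SA-treated over untreated, of 17 gene lists at 2, 5, 10 and 24 h, over the members measured at 24 h, with red above and blue below 0. Endoplasmic reticulum folding goes between 2.09 at 10 h and 0.45 at 24 h, and starch synthesis and breakdown between -0.10 and -1.13.

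Clock genes differed in size and sign between times. Of 22 measured, 6 were at least 2-fold lower and 1 higher at 24 h, against 8 higher and 6 lower at 10 h. PRR7 (AT5G02810), a repressor that acts by day, had -0.63, -0.30, -0.56 and -2.16 and was thus low at 24 h only. PRR5 had 0.36, -1.53, 1.93 and -1.74, and the RNA-binding protein GRP7 0.57, -1.57, 2.53 and -1.61. LNK1 (AT5G64170), which activates clock genes, had -0.85, -0.16, -1.37 and -1.91, and CDF1, a repressor of flowering, -0.75, -0.25, -1.46 and -1.82. On the 2 overexpressor arrays PRR7 had 0.23 and -1.49, and PRR5 0.54 and -2.67. LNK1 had 0.05 and 0.89 there, and CDF1 -0.34 and 0.46. The hour of collection is not given for the treated or the untreated plants, and its part in these ratios was not tested.

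Of 95 Aux/IAA, SAUR and GH3 genes of auxin response 13 were lower and 5 higher. SHY2 (IAA3, AT1G04240), an auxin repressor, had -0.98, -1.96, -1.91 and -2.05, AT1G29500 -0.29, -1.61, -2.44 and -1.93, SAUR63 -0.93, -0.92, -1.98 and -1.57, and SAUR36 (AT2G45210), a gene of leaf senescence, 1.22, 2.39, 1.92 and 2.91. In the cell cycle list HIS4, a histone H4 (-0.64, -0.48, -0.12 and -1.46), SYP111 (KNOLLE, a syntaxin of dividing cells; -0.46, -0.31, -0.09 and -1.29) and RNR1 (ribonucleotide reductase; -0.92, -0.30, 0.55 and -1.26) were the 3 of 18 that were lower at 24 h, with 0 higher. Their ratios were within 2-fold at each earlier time.

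Of 21 glucosinolate genes 7 were lower and 2 higher. MYB29 (-1.59, -0.86, -2.25 and -1.79), IMD1 (-0.87, -2.48, -2.55 and -1.70) and MYB34 (-1.06, -1.88, -2.16 and -1.62) were the lowest, and CYP79B2 (0.74, 1.78, 1.60 and 1.53) and CYP83B1 (0.45, 2.08, 1.88 and 1.53), which make the indole type, were higher. Of 38 cysteine-rich receptor kinases 3 were higher, EP1 (1.66), CRK36 (1.37) and ARCK1 (1.01), and 1 lower, CRK21 (-1.69). Of 227 cytosolic ribosomal proteins 2 were higher and 4 lower, against 8 higher and 1 lower under median centring. Markers of root (5 measured), flower (8) and seed (7) had 0 members at least 2-fold higher or lower at 24 h, with ratios between -0.51 for PYK10 of the root and 0.69 for AP3 of the flower. IRT1, the iron transporter of the root, read 51 in SA-treated and 51 in untreated plants, near the dim end of the array, while PYK10 read 1426 and 1096. HCEF1, a leaf gene of the Calvin cycle, read 9956 in SA-treated and 13257 in untreated plants. In these whole shoots fewer cells of a kind and less RNA per cell cannot be told apart.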

How the data were processed

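Total RNA was amplified linearly and labelled with Cy3 for untreated and Cy5 for treated plants, per the labels' protocols. Per the file headers, the deposited scanner output gives for 2 channels a mean spot intensity and a median local background intensity, together with flags and a log10 ratio of Cy5 over Cy3. The deposited series table holds the authors' linear ratio, whose normalization the sources used here do not give. Intensities were corrected with normexp (offset 50) and loess within each array in limma 3.58.1 (R 4.3.3), spots with outlier marks being left out. Tables and figures were made in Python 3.11.15, pandas 2.3.3 and matplotlib 3.10.9.

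Of 21500 features 21342 had 1 locus, and 21157 of these matched RefSeq's gene table of TAIR10.1, used for names only. No coordinates, promoters or probe sequences are printed, and the planned motif search was not run. The members and 32 gene lists were chosen with earlier results of these data known, and 3 more lists after the values were seen. Within the lists 14 members lacking their name in the table were dropped. Named genes were the 15 highest and 15 lowest at 24 h, the 10 largest differences each way, the 4 members of every list farthest from 0, and a fixed set (PR1, PR2, PR5, SIB1, ICS1, WRKY70, PDF1.2). Other list members in the text were picked once values were known. For a spot saturated or not well above background in 1 channel at 24 h the fold is a lower bound on the loess scale, computed per channel on brightness-quantile-normalized signals, where dye bias may enter. For EBP and GSTU2 it equals the fitted fold, since quantile normalization of brightness keeps the ratio and the dim GSTU2 channel lay above the floor, and other settings give other values. At earlier times, ratios of ELI3-2, GSTU3, GSTU2, OSM34, AT5G39520, NIT2, GSTU24, GSTU4, XTH10, BCAT-2, PR1, ACS2, DREB2C, CRK36, PORA, PDF1.2 and some organ markers had a channel near background and are fitted values.

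The difference used limma's lmFit and eBayes over the 4 SA arrays with 2 residual degrees of freedom and was checked on simulated data. Since no label names separate cultures, its p-values reflect only how these arrays vary, in part perhaps technically, and their number limits the precision. Alternatives were other offsets (16 and 0), median centring, the scanner's log ratio, the authors' ratio, other filters and sizes, and fits with arrays left out or added.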

Additional observations from a re-analysis of the deposited data

Results flagged for a closer look

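Of 1112 features at least 2-fold lower at 24 h and measured on all 4 SA arrays, 57 were at least 2-fold higher at an earlier SA time. Of 1049 higher at 24 h, 13 were at least 2-fold lower earlier. Over all features 3.84%, 6.35% and 7.64% were higher at 2, 5 and 10 h, and 2.31%, 3.82% and 4.63% lower. Neither count stands out beside these shares. With 1 array per time the opposite directions were not tested. Among the 57, SHD had 2.61 at 10 h and -1.39 at 24 h, GRP7 had 2.53 and -1.61, and SEX1 had 1.25 and -2.93. Among the 13, AT2G37130 had -1.38 at 5 h, but was already at 2.56 at 10 h and had 2.41 at 24 h. ARGAH2 had -2.12 at 10 h and 1.10 at 24 h, and BEE3 had -1.77 at 5 h and 1.05 at 24 h.

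The spots with outlier marks at 24 h were used in no comparison. If they are kept, 33 of the 1722 (1.92%) were at least 2-fold from the untreated plants, 13 higher and 20 lower, against 11.1% of the spots without a mark. When spots were ranked by Cy5 signal and cut into 5 equal groups, 19.1% of the brightest group and 0.0698% of the dimmest carried a mark. At 10 h 2.44% of the same features were at least 2-fold, against 12.5% of the others.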

How the results depend on the processing

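The 24 h counts depended on scaling and on the size asked for. Under median centring 1580 features were higher and 887 lower. Lower features numbered 1685 with a normexp offset of 0 and 1722 with the scanner's own log ratio, where 1113 is the reported count. A limit of 1.5-fold gave 4966 features, 2339 higher and 2627 lower, and one of 4-fold gave 341, 227 higher and 114 lower. Features shared with every earlier time numbered 591 higher and 100 lower with offset 0, 544 and 121 with the scanner's log ratio, 78 lower with offset 16, 106 lower in the authors' table and 7 lower under median centring, where 365 were higher at 24 h alone. In the other alternatives these counts stayed within 1.5 times. For the difference from the earlier times, limma called OSM34 alone, and only in the fit on all 6 arrays. There the error also holds the spread of the overexpressor arrays. The smallest adjusted p moved with the variance model and the arrays used, so none is given here. By size, features at least 2-fold above and below the earlier mean numbered 468 and 1320 without 2 h. They numbered 364 and 955 without 5 h, and 366 and 713 without 10 h. Of 136 named genes at least 2-fold at 24 h 0 changed sign and 6 went under 2-fold, all 6 under median centring. Beside the list counts given above, auxin genes had 20 lower with offset 0 and cytosolic ribosomal proteins 1 to 8 lower over the alternatives. Counts of lower genes went up to 6 in the cell cycle, 3 among glutathione transferases, 4 among cell wall genes (1 under median centring) and 2 among glucosyltransferases and receptor kinases, and down to 0 for WRKY and jasmonate genes and 1 for photosynthesis under median centring. Counts of higher genes went up to 3 for the clock and 2 for sulfate assimilation. In starch, aminoacyl-tRNA synthetases, plastid proteins and chlorophyll synthesis (higher) and pattern-triggered immunity (lower), 0 became 1 in at least 1 alternative. List medians kept their sign except those near 0 under median centring, namely flower (-0.01) and seed (-0.17) markers and cytosolic ribosomal proteins (0.21). The cause of these shifts was not tested. No paired analysis was possible because each SA time has 1 array. Low signal limits the 2 h ratios, where the median above background was 21.5 for Cy5.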

Other observations

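Further genes were at least 2-fold higher at 10 h and at least 2-fold lower at 24 h. AT5G23240 had 0.07, -2.14, 4.37 and -1.84 at 2, 5, 10 and 24 h, and the germin-like GER3 had -0.49, -1.10, 1.66 and -2.59. The kinase CPK7 had -0.35, 0.49, 1.43 and -1.57. CUL3, a cullin of ubiquitin ligases, had -1.22, 0.12, 1.05 and -1.27. SUS2 (AT1G80070), a splicing factor of the PRP8 family, had -1.14, 0.34, 1.21 and -1.13. VIP4 had -1.58, 0.05, 1.03 and -1.17, and NRPB2, the second largest subunit of RNA polymerase II, had -0.73, 0.08, 1.01 and -1.0. The immune receptor gene RPS4 had 0.00, 0.25, 1.01 and -1.03. These genes were chosen after their values were seen, and CUL3, SUS2, VIP4, NRPB2 and RPS4 are near the 2-fold limit.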
